A study of Mus musculus with 6 samples.

Results

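The genes described here encode 4 growth factor receptors, Egfr, Erbb2, Erbb3 and Met, and 6 ligands, Hgf, Areg, Ereg, Hbegf, Btc and Tgfa. They were taken by name, 10 of the 48432 genes in the deposited expression table, and all 10 were found there. The cells were hepatocytes, the main metabolic cells of the liver, prepared from mice of the inbred strain FVB, and their polyadenylated RNA was sequenced as stranded libraries. There were 3 groups of 2 samples. The normal fed and the DDC fed groups were adults, the DDC fed mice having received DDC for 4 weeks. The E18 group came from embryos of day 18, and each preparation pooled about 8 livers. The labels call the mice adults with no further age, and name no transgene or mutation for any group. DDC disturbs heme synthesis, leads to porphyrin deposits and injures liver cells and bile ducts. Whether each adult sample is a mouse of its own is not stated in the labels, and the p-values therefore reflect the spread between samples alone, which may be technical. Samples are called 0 and 1 within a group, after the columns of the table.

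In injured adults, RNA of 5 ligands (Hgf, Hbegf, Btc, Tgfa and Areg) was higher than in normal fed adults, while the most abundant receptor, Egfr, was listed at a lower level in both DDC fed samples than in either normal fed one. In TPM as deposited, the E18 samples shared the high Hgf, Hbegf and Areg but not the high Btc and Tgfa, and had the lowest Egfr and the highest Erbb2. Met, the receptor of Hgf, lay in overlapping ranges in all 3 groups.

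The EGF family ligands are made as membrane-anchored precursors that proteases cut from the cell surface, and they bind EGFR, which pairs with itself or with ERBB2 or ERBB3. ERBB2 has no known ligand of its own, and ERBB3 binds neuregulins and signals mainly through a partner because its kinase is weak. HGF is secreted as an inactive single chain, is cut by serine proteases and binds MET. In liver, EGFR and MET are the receptors of the main direct mitogens of hepatocytes, and HGF is made mostly by non-parenchymal cells, among them hepatic stellate cells.

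The sequence just before the start of a gene is shown for the 4 ligands with the most distinct patterns and for Egfr, so that their values can be read beside their promoters. RefSeq windows on build GRCm38.p6 were used for 7 of the 10 genes, 8 windows in all. Among them is a further window of Hgf, at chr5:16553651-16553900 (+), that is not printed. Each line gives the 250 bases before the annotated start, 5′ to 3′ on the strand of the gene. They cover chr5:91139349-91139598 (+) for Areg, chr5:91402995-91403244 (-) for Btc, chr5:16553245-16553494 (+) for Hgf, chr6:86194972-86195221 (+) for Tgfa and chr11:16751953-16752202 (+) for Egfr. Capitals mark matches to the motifs searched, on both strands: AP-1 (TGANTCA), CRE (TGACGTCA), TEAD (GGAATG) and the TATA box (TATAAA).
Areg: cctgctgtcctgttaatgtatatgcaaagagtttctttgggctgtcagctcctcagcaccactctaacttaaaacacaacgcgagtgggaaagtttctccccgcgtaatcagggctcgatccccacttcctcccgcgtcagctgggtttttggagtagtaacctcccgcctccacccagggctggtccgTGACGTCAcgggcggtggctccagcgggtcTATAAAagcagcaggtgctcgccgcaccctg
Btc: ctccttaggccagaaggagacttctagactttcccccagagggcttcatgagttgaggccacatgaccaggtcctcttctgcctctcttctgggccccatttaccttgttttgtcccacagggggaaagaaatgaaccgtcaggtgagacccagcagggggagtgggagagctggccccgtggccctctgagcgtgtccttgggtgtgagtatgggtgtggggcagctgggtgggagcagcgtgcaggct
Hgf: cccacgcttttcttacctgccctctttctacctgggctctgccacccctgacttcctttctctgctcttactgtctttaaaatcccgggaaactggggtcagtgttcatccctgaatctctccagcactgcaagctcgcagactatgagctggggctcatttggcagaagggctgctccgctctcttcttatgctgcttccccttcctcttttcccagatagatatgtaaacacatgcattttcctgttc
Tgfa: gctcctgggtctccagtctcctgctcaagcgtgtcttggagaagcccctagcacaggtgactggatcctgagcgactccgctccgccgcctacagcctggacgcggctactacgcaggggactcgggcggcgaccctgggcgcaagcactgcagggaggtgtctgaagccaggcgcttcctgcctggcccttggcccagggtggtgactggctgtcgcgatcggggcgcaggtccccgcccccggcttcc
Egfr: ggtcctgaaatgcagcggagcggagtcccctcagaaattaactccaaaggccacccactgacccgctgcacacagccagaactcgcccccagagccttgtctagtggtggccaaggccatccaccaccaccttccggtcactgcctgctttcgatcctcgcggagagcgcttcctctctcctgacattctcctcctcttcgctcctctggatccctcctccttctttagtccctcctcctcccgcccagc

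In Areg, the CRE, a cyclic AMP response element, lay 61 to 54 bases before the start and the TATA box 31 to 26 bases before it. Of 32851 windows of the same length, 1.55% held that CRE and 12.4% the TATA box. None of the 4 motifs was found in the windows of Btc, Hgf, Tgfa or Egfr. Met, whose window is not printed, had 1 AP-1 match, TGAGTCA, 54 to 48 bases before its RefSeq start, a motif held by 6.75% of windows. Erbb2 had 1 TEAD match, GGAATG, 88 to 83 bases before its RefSeq start, as did 12.6% of windows. For Met and Erbb2 the RefSeq start differs from the gene start given below. A match is a description of the letters and shows no binding. G and C made up 57.2% of the window of Areg and 59.6% of that of Btc.

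All levels are TPM, a share of the library's transcripts corrected for length, so levels may be compared between genes. Differences are on the scale log2(TPM + 1), given as the difference ± SE, and understate the change of genes near 1 TPM. A gene passed where its adjusted p from limma, Benjamini-Hochberg over 14307 genes, was under 0.05. The table holds no counts, so neither the depth nor the counting error of low values is known. Of the 10 members, 9 were tested, and Ereg was not, as it never reached 1 TPM. Areg, Erbb2, Btc, Hgf and Hbegf reached 1 TPM only in groups where they were high, so their passing of the filter is tied to their difference. The same holds for genes of the pathway lists below, among them Dusp5, Ier3, Gab2, Cd44, Gpc3, Nrg1 and St14. Those lists were chosen with earlier results of these data known, and most genes named from them were picked for large differences.

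Across all genes, the median difference was 0.45 for DDC fed and 1.06 for E18, each against normal fed, and -0.55 for DDC fed against E18. With median-ratio scaling these medians were -0.01, 0.09 and -0.10, and the share of calls that were higher went from 91.8%, 83.2% and 27.4% to 63.1%, 54.7% and 44.3%. The hepatocyte markers, 12 genes such as Hnf4a, Apob and Cps1, summed to between 7368 and 36800 TPM, highest in the normal fed and lowest in the E18 samples. Serpina1c was listed at 0 in both normal fed samples and Fgb in both E18 samples, so an exact 0 in this table can be a failed estimate. Neutrophil markers summed to 55950 and 66620 TPM in E18, and to at most 3.522 TPM in adults. Erythroid markers summed to 12500 and 23590 TPM in E18, and to at most 26.04 TPM in adults. Both E18 values lay above the hepatocyte sums of those samples, 11530 and 7368 TPM. Megakaryocyte and platelet markers summed to 1966 and 2219 TPM in E18, and to at most 6.518 TPM in adults. Within the normal fed group, sample 1 was lower than sample 0 the longer the gene (Spearman rho -0.39 across genes, which are not independent, of exon length with the log2 difference). In DDC fed and E18 the same value was -0.181 and -0.087.

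Egfr, the receptor of EGF, TGF-alpha and amphiregulin, was the most abundant of the 4 receptors in each of the 6 samples. It stood at 346.2 and 116.7 TPM in normal fed samples, at 69.4 and 48.61 TPM in DDC fed and 37.05 and 15.74 TPM in E18 samples. No 2 groups overlapped, and the order from normal fed through DDC fed to E18 held for every sample. The normal fed mean was 231.5 ± 162.3 TPM (SD, n = 2), the DDC fed mean 59.0 ± 14.7 TPM (SD, n = 2) and the E18 mean 26.4 ± 15.07 TPM (SD, n = 2). Egfr fell in E18 against normal fed, by 3.0 ± 0.58 (limma, adjusted p = 0.00286), a call that was lost without E18 sample 1 (-2.41, adjusted p = 0.0602). The difference of DDC fed from normal fed was -1.77 ± 0.58, with a 95% interval from -3.16 to -0.39, and missed the threshold (limma, adjusted p = 0.0518). It passed with median-ratio scaling (-2.46, limma, adjusted p = 0.015), with the trend on exon length removed (-2.41, limma, adjusted p = 0.00727) and without normal fed sample 1 (-2.55, limma, adjusted p = 0.0151), and not without normal fed sample 0 (-0.99). The normal fed samples differed 2.97-fold from each other, and Egfr has the longest exon sequence of the 10 genes, 11326 bases. DDC fed was above E18 by 1.23 ± 0.58, which missed the threshold (interval -0.16 to 2.61, limma, adjusted p = 0.104). It passed with median-ratio scaling (1.71, 0.0277), quantile normalization (1.70, 0.033), the exon-length trend removed (2.04, 0.00583) and only the compared groups in the fit (0.0387), as well as without either normal fed sample, and turned to -0.49 when scaled to the hepatocyte markers (limma, adjusted p = 0.282). The gene lies at chr11:16752203-16918158 (+).

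Erbb3, the neuregulin-binding partner, came next in adults. It was listed at 41.06 and 22.25 TPM in normal fed samples, at 68.71 and 41.1 TPM in DDC fed and 20.79 and 13.6 TPM in E18. The groups did not overlap, with DDC fed highest and E18 lowest, although DDC fed sample 1 and normal fed sample 0 were all but equal. Erbb3 was higher in DDC fed than in E18 by 1.60 ± 0.39 (limma, adjusted p = 0.00984). That call was lost without DDC fed sample 0 (limma, adjusted p = 0.0721) or either E18 sample (0.0559 and 0.128), and the difference was -0.10 when scaled to the hepatocyte markers (0.819). Against normal fed, neither the DDC fed difference (0.79 ± 0.39, interval -0.13 to 1.72, limma, adjusted p = 0.153) nor the E18 difference (-0.81 ± 0.39, interval -1.73 to 0.11, limma, adjusted p = 0.0953) passed. The E18 difference passed with median-ratio scaling (-1.95, limma, adjusted p = 0.00246) and with quantile normalization (-1.93) or the exon-length trend removed (-2.05), and turned to 0.88 when scaled to the hepatocyte markers (limma, adjusted p = 0.0466). The DDC fed difference passed without normal fed sample 0 (1.22, limma, adjusted p = 0.0359). Erbb3 lies at chr10:128567523-128589652 (-).

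Met, the receptor of HGF, was listed at 22.1 and 10.22 TPM in normal fed samples, at 25.63 and 19.65 TPM in DDC fed and 21.58 and 14.45 TPM in E18. The ranges of all 3 groups overlapped. The difference of DDC fed from normal fed was 0.54 ± 0.38 (interval -0.37 to 1.45, limma, adjusted p = 0.301) and that of E18 from normal fed was 0.21 ± 0.38 (interval -0.70 to 1.13, limma, adjusted p = 0.626). Without normal fed sample 0 the DDC fed difference passed (1.06, limma, adjusted p = 0.0222), and with median-ratio scaling it was -0.10. The E18 difference was past the threshold as lower with median-ratio scaling (-0.91, limma, adjusted p = 0.0355), quantile normalization (-1.02, 0.0184) and the exon-length trend removed (-1.12, 0.00781). When scaled to the hepatocyte markers it was past the threshold as higher (1.89, limma, adjusted p = 0.000163), so no direction for Met in E18 is given here. The intervals leave room for changes of up to 1.45, so a like level in the groups is not shown. Met lies at chr6:17463800-17573980 (+).

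Erbb2, the receptor without a ligand of its own, was near 0 in adults and detected in E18. It was listed at 0.03796 and 0.01107 TPM in normal fed samples, at 0.3554 and 0.3453 TPM in DDC fed and 2.721 and 2.038 TPM in E18. The groups were fully separated, and the E18 level was still the lowest of the 4 receptors in that group. Erbb2 rose in E18 against normal fed by 1.71 ± 0.13 (limma, adjusted p = 2.43e-05) and was lower in DDC fed than in E18 by 1.32 ± 0.13 (difference -1.32, limma, adjusted p = 0.000137). Against normal fed, DDC fed was higher by 0.40 ± 0.13 (limma, adjusted p = 0.046), at levels under 1 TPM. This call was lost with median-ratio scaling (limma, adjusted p = 0.0564), with any of the 4 adult samples left out (0.0864 to 0.174), and turned to -0.19 with the exon-length trend removed. Erbb2 lies at chr11:98412470-98437716 (+), and its end overlaps Mien1 on the other strand by 9 exonic bases.

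**Figure D1:**
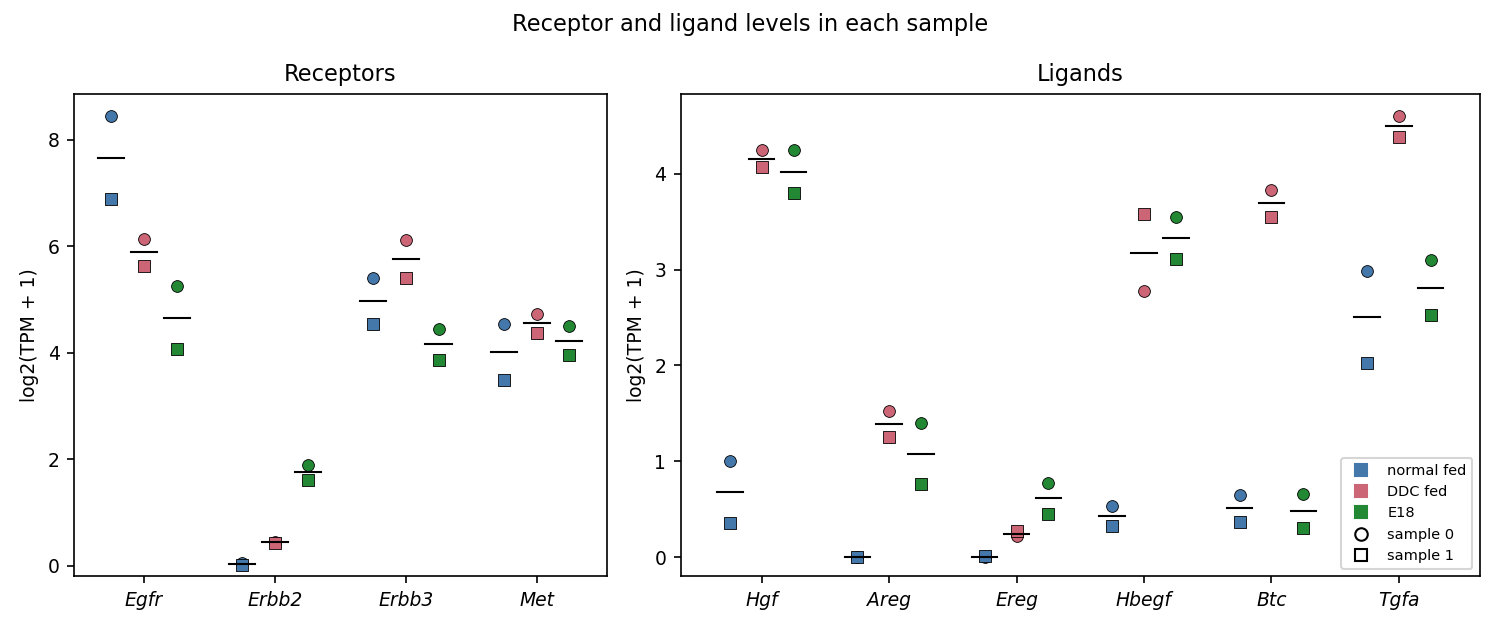
Level of each receptor (left) and ligand (right) in the 6 samples, as log2(TPM + 1) on the vertical axis, with the genes along the horizontal axis; colours are the 3 groups, circles and squares samples 0 and 1, and bars the group means. Egfr steps down from normal fed to E18, Hgf and Hbegf are high in DDC fed and E18, and Btc is high in DDC fed samples (13.25 and 10.72 TPM) and under 0.6 TPM elsewhere.

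Hgf, the ligand of MET, was scarce in normal fed samples, at 0.9966 and 0.2829 TPM. It was listed at 17.98 and 15.84 TPM in DDC fed and 17.98 and 12.94 TPM in E18. Both latter groups stood far above the normal fed samples and overlapped each other. The rise was 3.48 ± 0.28 in DDC fed (limma, adjusted p = 0.000256) and 3.35 ± 0.28 in E18 (limma, adjusted p = 4.85e-05), with means 26.4 and 24.2 times the normal fed mean of 0.6397 ± 0.5046 TPM (SD, n = 2). The normal fed level lies near 0, so these ratios are imprecise. DDC fed and E18 differed by 0.14 ± 0.28 (interval -0.54 to 0.81, limma, adjusted p = 0.691). That difference passed with quantile normalization (0.85, 0.0219) and the exon-length trend removed (0.83, 0.00754), and with the opposite sign when scaled to the hepatocyte markers (-1.54, limma, adjusted p = 0.00111). In the bulk RNA of a cell preparation, more cells that make a transcript and more transcript per cell cannot be told apart. This holds for each gene above and below, the receptors included. The gene lies at chr5:16553495-16620152 (+) and shares 484 exonic bases with the predicted transcript Gm43489 on its own strand, itself listed at 0.0704 to 2.69 TPM.

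Tgfa, a ligand of EGFR that hepatocytes themselves are known to make, was the most abundant of the 6 ligands in adults. It stood at 6.894 and 3.08 TPM in normal fed samples, at 23.31 and 19.96 TPM in DDC fed and 7.569 and 4.765 TPM in E18. The DDC fed samples lay above all others, and the normal fed and E18 ranges overlapped. Tgfa rose in DDC fed by 1.99 ± 0.36 (limma, adjusted p = 0.00577), to 4.34 times the normal fed mean, and was higher in DDC fed than in E18 by 1.68 ± 0.36 (limma, adjusted p = 0.00582). The latter call was lost without E18 sample 1 (1.40, limma, adjusted p = 0.0948) and when scaled to the hepatocyte markers (0.07, 0.863). E18 and normal fed differed by 0.31 ± 0.36 (interval -0.55 to 1.17, limma, adjusted p = 0.458). It was past the threshold as lower with quantile normalization (-1.32, limma, adjusted p = 0.00252) and the exon-length trend removed (-0.96, 0.012), and as higher without normal fed sample 0 (0.78, 0.0391) or when scaled to the hepatocyte markers (1.84, 0.000186). Tgfa lies at chr6:86195223-86275719 (+).

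Btc encodes betacellulin, which binds EGFR and the related receptor ERBB4. It was listed at 0.5679 and 0.2907 TPM in normal fed samples, at 13.25 and 10.72 TPM in DDC fed and 0.5747 and 0.2337 TPM in E18. Both DDC fed samples were over 10 TPM, and the other 4 samples were under 1 TPM. Btc rose in DDC fed by 3.18 ± 0.20 (limma, adjusted p = 0.000106), to 27.9 times the normal fed mean. In DDC fed it was also higher than in E18, by 3.21 ± 0.20 (limma, adjusted p = 1.89e-05). E18 differed from normal fed by -0.03 ± 0.20 (interval -0.50 to 0.44, limma, adjusted p = 0.899), and was past the threshold as lower with quantile normalization (-1.22, 0.000541) and the exon-length trend removed (-1.15, 0.00139). The gene lies at chr5:91357261-91402994 (-).

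Hbegf encodes heparin-binding EGF-like growth factor, an early-response ligand. It was listed at 0.45 and 0.2478 TPM in normal fed samples, at 5.858 and 10.96 TPM in DDC fed and 10.74 and 7.654 TPM in E18. The DDC fed and E18 samples overlapped, and all 4 stood above both normal fed samples. Hbegf rose by 2.75 ± 0.31 in DDC fed (limma, adjusted p = 0.000772) and by 2.91 ± 0.31 in E18 (limma, adjusted p = 0.000145). The group means were 24.1 and 26.4 times the normal fed mean, itself under 1 TPM. DDC fed and E18 differed by -0.15 ± 0.31 (interval -0.89 to 0.58, limma, adjusted p = 0.676), and by -1.75 when scaled to the hepatocyte markers (0.000304).

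Areg encodes amphiregulin, a ligand of EGFR. It was listed at 0 in both normal fed samples, at 1.882 and 1.376 TPM in DDC fed and at 1.629 and 0.6965 TPM in E18. With a group at 0 no fold is given. Areg rose in DDC fed (limma, adjusted p = 0.00302) and in E18 (limma, adjusted p = 0.0032), and the E18 call was lost with quantile normalization (0.162) and with the exon-length trend removed (0.099). DDC fed and E18 overlapped and differed by 0.31 ± 0.21 (interval -0.20 to 0.82, limma, adjusted p = 0.241). This difference passed with quantile normalization (0.91, 0.00323) and without E18 sample 0 (0.63, 0.0285), and with the opposite sign when scaled to the hepatocyte markers (-0.72, limma, adjusted p = 0.0122). Ereg, which encodes epiregulin, was listed at 0 and 0.006793 TPM in normal fed samples, at 0.1616 and 0.2045 TPM in DDC fed and 0.7101 and 0.3691 TPM in E18. Its groups did not overlap, at levels under 1 TPM throughout. When all genes above 0 were fitted, Ereg was higher in E18 than in normal fed by 0.61 ± 0.11 (limma, adjusted p = 0.00944), and its difference in DDC fed, 0.24 ± 0.11, did not pass (limma, adjusted p = 0.242).

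Against normal fed, 6 of the 9 tested members rose in DDC fed (5 ligands and Erbb2) and 0 fell, where 34.2% of all genes tested rose and 3.07% fell. In E18 4 rose (Hgf, Areg, Hbegf and Erbb2) and 1 fell (Egfr), where 63.0% of all genes rose and 12.7% fell, so the share of risers was below that of all genes. Between DDC fed and E18, 3 members were higher in DDC fed (Erbb3, Btc and Tgfa) and 1 was lower (Erbb2), beside 17.7% and 47.0% of all genes. The 3 comparisons share samples, so their calls are not independent. Of the 5 ligand rises in DDC fed, those of Hgf, Hbegf, Btc, Tgfa and Areg passed under every alternative run that tested them.

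**Figure D2:**
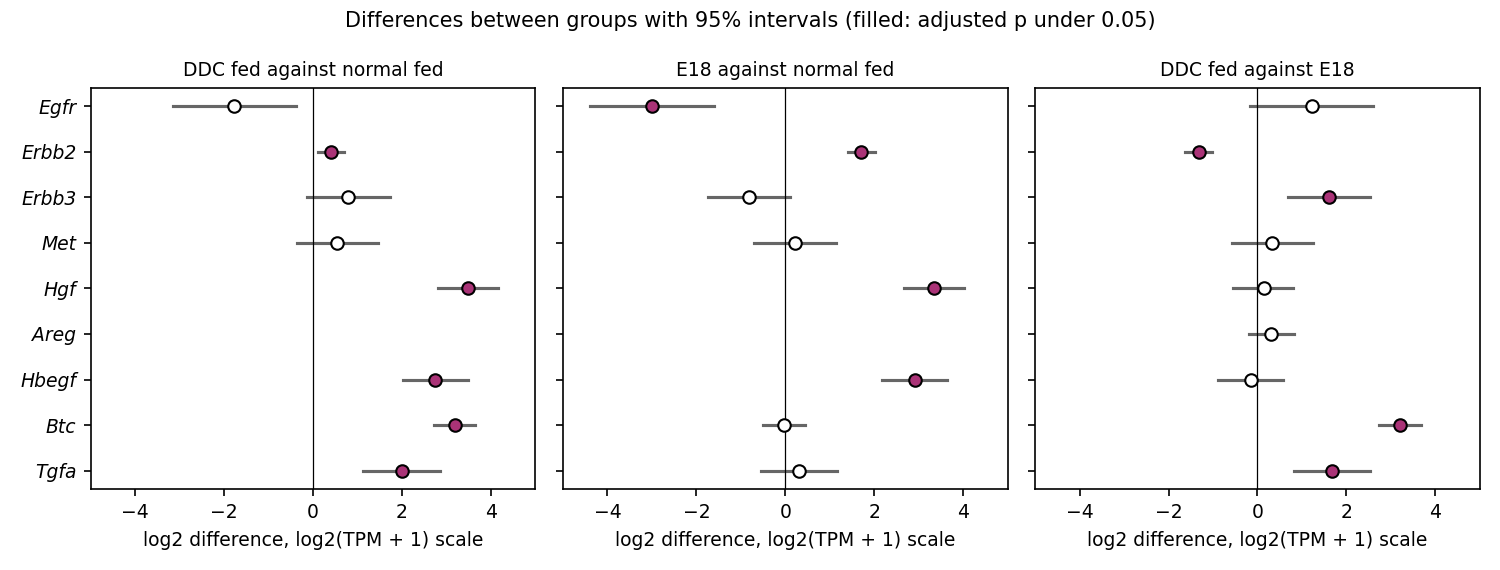
Difference of each tested member between groups (horizontal axis, log2(TPM + 1) scale) with 95% intervals, for the 3 comparisons; filled points passed the adjusted threshold of 0.05, and Areg is drawn only where no compared group was listed at 0. The interval of Egfr in DDC fed lies below 0 (-3.16 to -0.39) although its adjusted p of 0.0518 misses the threshold, and Btc stands at 3.18 and 3.21 in the outer panels and -0.03 in the middle one.

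Since TPM is corrected for length, the members can be summed. The 4 receptors came to 409.4 and 149.2 TPM in normal fed samples, at 164.1 and 109.7 TPM in DDC fed and 82.14 and 45.84 TPM in E18. The receptor sum of normal fed sample 1 lay between those of the DDC fed samples. Egfr made up 84.6% and 78.2% of the receptor sum in normal fed, 42.3% and 44.3% in DDC fed, and 45.1% and 34.3% in E18. Its share was thus separate in normal fed, while DDC fed lay within the E18 range. The share of Erbb3 was highest in DDC fed, at 41.9% and 37.5%, against 14.9% or less in normal fed and 25.3% and 29.7% in E18. Met went from 5.4% and 6.85% in normal fed through 15.6% and 17.9% in DDC fed to 26.3% and 31.5% in E18, without overlap. These shares are relative, and the Met share is higher where Egfr is lower although the TPM of Met overlapped. They do not depend on the scaling between samples.

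The 6 ligands summed to 8.908 and 3.908 TPM in normal fed samples, at 62.44 and 59.06 TPM in DDC fed and 39.2 and 26.66 TPM in E18. Tgfa was the main ligand transcript in normal fed, at 77.4% and 78.8% of the sum, and made up 37.3% and 33.8% in DDC fed and 19.3% and 17.9% in E18. Hgf rose in share from 11.2% and 7.24% in normal fed to 28.8% and 26.8% in DDC fed and 45.9% and 48.5% in E18, where it was the largest. Btc held 21.2% and 18.2% of the sum in DDC fed, against 1.47% and 0.877% in E18. Hbegf held 27.4% and 28.7% in E18 and 9.38% and 18.6% in DDC fed. The injured adult and the fetal samples therefore differed in the make-up of their ligand RNA, with more Btc and Tgfa in the former and more Hgf and Hbegf, as shares, in the latter.

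**Figure D3:**
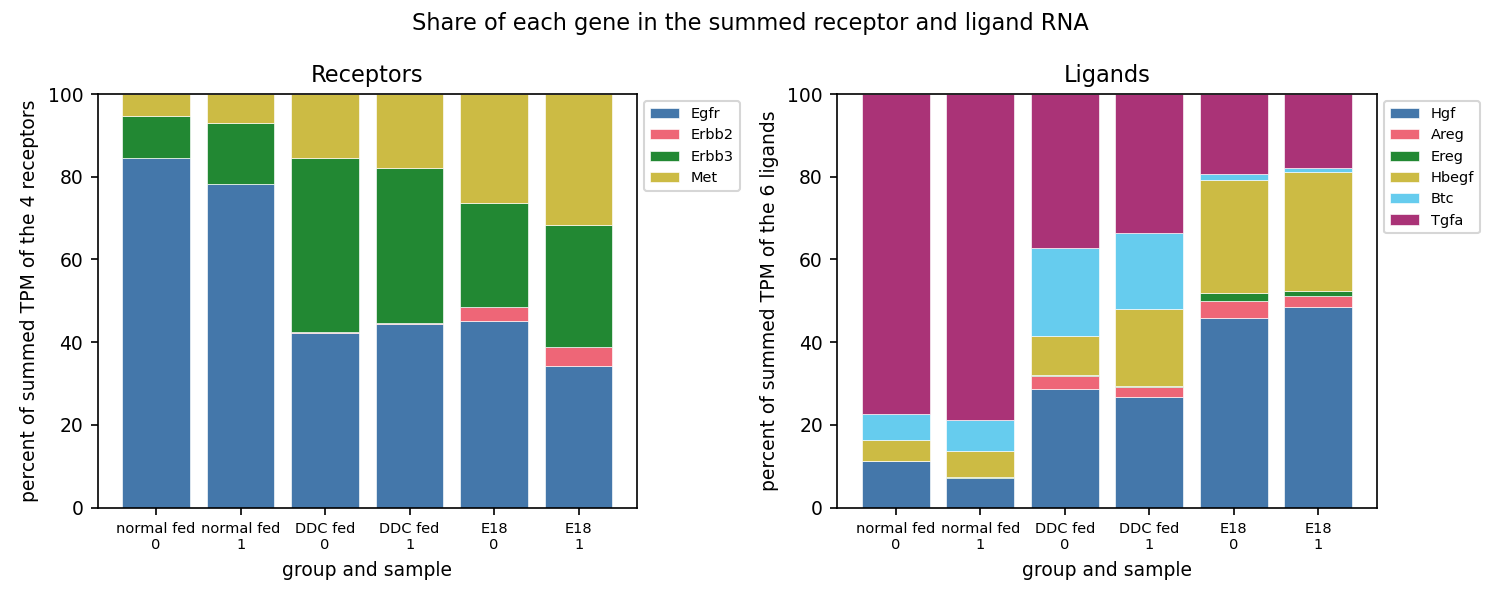
Share of each gene in the summed TPM of the 4 receptors (left) and 6 ligands (right), in percent on the vertical axis, for each of the 6 samples on the horizontal axis. Egfr takes 84.6% and 78.2% of the receptor bar in normal fed samples, and Tgfa 77.4% and 78.8% of the ligand bar; in E18 the largest ligand is Hgf (45.9% and 48.5%).

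Areg, Ereg and Btc are neighbours on chromosome 5 of GRCm38, together with Epgn, which encodes epigen, a further ligand of EGFR. In order, Epgn lies at chr5:91027464-91035215 (+), Ereg at chr5:91074622-91093646 (+), Areg at chr5:91139599-91148432 (+) and Btc at chr5:91357261-91402994 (-). The span of 376 kb holds these 4 protein-coding genes and no other, and Btc is set apart from Areg by 208.8 kb. The neighbours did not share a pattern. Btc was high in DDC fed alone, Areg was detected in DDC fed and E18 at overlapping levels, and Ereg was highest in E18. Epgn was listed at 0 in 3 samples and at no more than 0.04861 TPM in the others.

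Summed marker RNA of stellate cells, macrophages and endothelial cells was higher in DDC fed and in E18 than in normal fed, as were Hgf, Hbegf and Areg. Btc and Tgfa were higher in DDC fed alone, and their E18 levels overlapped normal fed. Single markers with that pattern were also present, among them Rgs5 of the stellate list. The 12 markers of stellate cells and fibroblasts, such as Lrat, Pdgfrb and Col1a1, summed to 29.73 and 13.57 TPM in normal fed samples, at 405.9 and 363.6 TPM in DDC fed and 348.1 and 315.8 TPM in E18. All 12 passed as higher in DDC fed and 11 of 12 in E18, and none was at 0 in any sample. The marker that did not pass in E18 was Rgs5, with means of 2.818 TPM in normal fed, 29.04 TPM in DDC fed and 2.665 TPM in E18. Hgf came to 3.35% and 2.08% of this sum in normal fed, 4.43% and 4.36% in DDC fed and 5.16% and 4.1% in E18. Against this sum, Hgf thus differed far less between groups than its TPM did. The sum is weighted to Dcn, at 19.11 TPM in normal fed sample 0 and 227.9 TPM in DDC fed sample 0. Single markers differed widely. Their DDC fed means ran from 10.3 (Rgs5) to 182 (Col1a1) times normal fed, and their E18 means from 0.946 (Rgs5) to 719 (Col1a1) times. The share of Hgf would thus differ with the marker chosen. The part of these cells in the Hgf result was not tested.

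The 10 macrophage markers, such as Adgre1, Clec4f and Csf1r, summed to 95.55 and 76.92 TPM in normal fed samples, at 630.3 and 736.8 TPM in DDC fed and 911.5 and 1171 TPM in E18. All 10 passed as higher in both groups. Hbegf was 0.471% and 0.322% of that sum in normal fed, 0.929% and 1.49% in DDC fed and 1.18% and 0.654% in E18. Btc was 0.594% and 0.378% of it in normal fed, 2.1% and 1.45% in DDC fed and 0.063% and 0.02% in E18. Tgfa was 7.22% and 4.0% of it in normal fed, 3.7% and 2.71% in DDC fed and 0.83% and 0.407% in E18. Areg, at 0 in normal fed, was 0.299% and 0.187% in DDC fed and 0.179% and 0.0595% in E18. Against the stellate sum, Btc was 1.91% and 2.14% in normal fed, 3.26% and 2.95% in DDC fed and 0.165% and 0.074% in E18. The macrophage sums of the E18 samples were above those of the DDC fed samples, and Btc in E18 overlapped normal fed. Of the 10 markers, 5 were lower and 1, Vsig4, was higher in DDC fed than in E18, and 4 did not pass. The part of macrophages in the differences of these ligands was not tested.

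The 10 endothelial markers summed to 50.03 and 16.54 TPM in normal fed samples, at 198.9 and 205.4 TPM in DDC fed and 491.4 and 480.8 TPM in E18, and all 10 passed as higher in both groups. The 8 cholangiocyte markers, of which 6 were tested, summed to 14.18 and 12.15 TPM in normal fed samples, at 85.29 and 107 TPM in DDC fed and 151.1 and 97.69 TPM in E18. Of these, 2 passed as higher in DDC fed and 4 in E18, and Cftr and Sctr were at 0 in both normal fed samples. Sox9 passed in DDC fed and not in E18, with means of 1.636 TPM in normal fed, 16.24 TPM in DDC fed and 2.395 TPM in E18. The part of these cells in any member's difference was not tested.

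Set against the hepatocyte markers, Egfr was 0.941% and 0.468% of their sum in normal fed, 0.283% and 0.211% in DDC fed and 0.321% and 0.214% in E18. On this scale the DDC fed and E18 ranges of Egfr overlapped, and both lay below normal fed. Met was 0.06% and 0.041% of that sum in normal fed, 0.105% and 0.0851% in DDC fed and 0.187% and 0.196% in E18, without overlap of the groups. The order of the groups for Met thus depends on what it is measured against. The hepatocyte list itself had 8 of 12 members lower and 1 higher in E18, and 1 lower and 1 higher in DDC fed. The 8 include Fgb, listed at 0 in E18, and the higher one was Serpina1c both times, listed at 0 in normal fed. Mean Pck1 and Tat were 1536 and 1317 TPM in normal fed but only 26.9 and 9.339 TPM in E18. For Cyp2e1, the DDC fed mean was 814.8 TPM, against 6291 TPM without DDC. Shares of this sum, and values scaled to the markers, thus carry the markers' own changes.

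**Figure D4:**
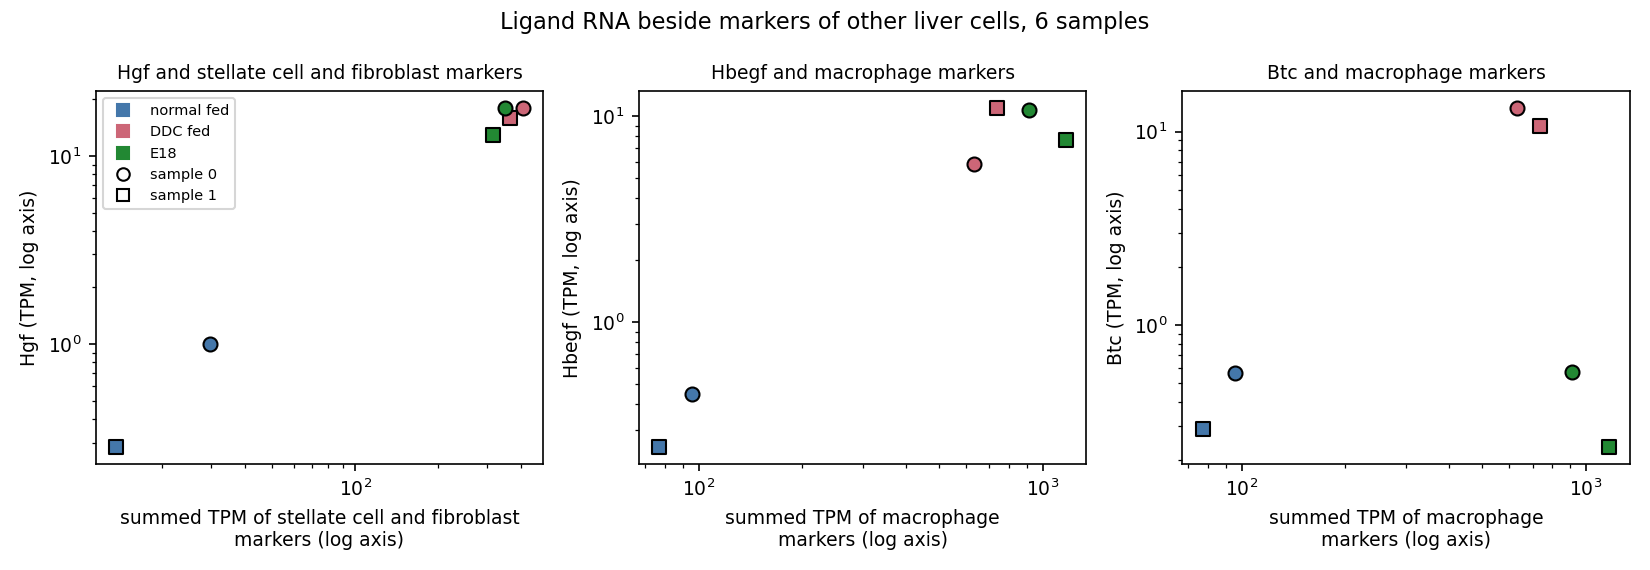
Hgf, Hbegf and Btc (vertical axes, TPM, log scale) against the summed TPM of stellate cell and fibroblast or macrophage markers (horizontal axes, log scale) in the 6 samples, coloured by group with circles for sample 0 and squares for sample 1. Hgf and its stellate sum are both low in normal fed and both high in the other 4 samples. Btc in E18 (0.5747 and 0.2337 TPM) overlaps normal fed, and the macrophage sums there are 911.5 and 1171 TPM.

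Of the 9 other ligands and receptors of both families, 5 were tested. Nrg1, which encodes the neuregulin that ERBB3 and ERBB4 bind, was listed at 0.1785 and 0.1634 TPM in normal fed samples, at 19.23 and 20.18 TPM in DDC fed and 4.786 and 4.615 TPM in E18. It rose by 4.14 ± 0.17 in DDC fed (limma, adjusted p = 2.08e-05) and by 2.28 ± 0.17 in E18 (limma, adjusted p = 2.55e-05), with no overlap between the groups. Nrg4, a neuregulin that binds ERBB4, stood at 11.05 and 9.488 TPM in normal fed samples, at 20.05 and 20.33 TPM in DDC fed and 3.253 and 3.371 TPM in E18. It was higher in DDC fed (0.91 ± 0.19, limma, adjusted p = 0.0106), a call lost with median-ratio scaling (0.28, 0.223) and without either DDC fed sample (0.0927 and 0.0978), and it fell in E18 (-1.38 ± 0.19, limma, adjusted p = 0.000568), which became 0.12 (0.793) when scaled to the hepatocyte markers. Its receptor Erbb4 was at 0 in every adult sample, and the E18 samples listed it at 0.1094 and 0.05138 TPM. In E18 Nrg2 also rose, from 0 in both normal fed samples to 2.504 and 3.463 TPM, and so did Mst1r, the receptor of macrophage-stimulating protein and the relative of Met (2.35 ± 0.12, limma, adjusted p = 5.11e-06). Egf itself was not tested, at 0.2211 to 0.7999 TPM over the 6 samples.

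Of the 13 genes of HGF activation and its inhibitors, 6 rose and 0 fell in DDC fed, and 7 rose and 3 fell in E18. The list pools activators and inhibitors, so its counts give no direction of HGF activation. The 6 include Spint2, a protease inhibitor, with means of 262.2 TPM in DDC fed and 96.11 TPM in normal fed (limma, adjusted p = 0.00397). Of all genes tested 34.2% rose and 3.07% fell in DDC fed, and 63.0% rose and 12.7% fell in E18, so the share that rose in E18 was below that of all genes. The median difference was 0.89 and 1.39, beside 0.45 and 1.06 over all genes. In E18 the counts went to 3 higher and 4 lower with the exon-length trend removed, to 4 and 4 with quantile normalization and to 10 and 0 when scaled to the hepatocyte markers. St14, which encodes matriptase, a membrane protease that can cut pro-HGF, was listed at 0.02112 and 0.03096 TPM in normal fed and at 14.57 and 8.634 TPM in DDC fed (3.58 ± 0.28, limma, adjusted p = 0.000234), with 2.277 and 1.191 TPM in E18. Plaur, the urokinase receptor, rose in E18 from 0.1528 and 0.271 TPM to 92.28 and 92.77 TPM. The genes that fell in E18 encode hepsin (Hpn, -1.47), factor XII (F12, -1.19) and plasma kallikrein (Klkb1, -1.03). All 3 are liver-made proteases. The count of 3 went to 0 without E18 sample 1 and to 1 without either DDC fed sample, normal fed sample 0 or E18 sample 0. All 3 were above normal fed when set against the hepatocyte markers (0.29, 0.56 and 0.71, not past the threshold). Hgfac, the HGF activator made by hepatocytes, did not pass, at 121.1 and 75.56 TPM in normal fed samples, at 186.9 and 165.3 TPM in DDC fed and 150.1 and 98.11 TPM in E18.

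Of 7 genes of EGF ligand shedding, 5 rose in DDC fed and 6 in E18, and 0 fell in either, with medians of 1.61 and 1.74, beside 34.2% and 63.0% of all genes higher and all-gene medians of 0.45 and 1.06. In E18 the counts went to 4 higher and 2 lower with quantile normalization. Rhbdf1 and Rhbdf2 encode iRhom proteins, which bring the sheddase ADAM17 to the cell surface. Rhbdf2 stood at 4.136 and 2.685 TPM in normal fed samples, at 21.46 and 21.15 TPM in DDC fed and 12.82 and 14.09 TPM in E18. Rhbdf1 rose by 2.40 in DDC fed (limma, adjusted p = 0.000308). Adam17, the main sheddase of TGF-alpha and amphiregulin, was higher in DDC fed by 0.99 (limma, adjusted p = 0.0372), which was lost with median-ratio scaling (0.37, 0.205). Without either DDC fed sample, 3 of the list rose in DDC fed, and Adam17 and Adam10 were not among them. Adam10 and Adam15 rose in DDC fed by 1.61 and 1.77 and in E18 by 3.62 and 4.24.

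Of 8 co-receptors, 6 rose and 0 fell in DDC fed, and 4 rose and 3 fell in E18, beside 34.2% and 63.0% of all genes higher and 3.07% and 12.7% lower. The share that rose in E18 was thus below that of all genes. Cd9, a tetraspanin that associates with the HBEGF precursor, was listed at 9.285 and 14.37 TPM in normal fed samples, at 289.9 and 294.8 TPM in DDC fed and 353.5 and 289.5 TPM in E18 (4.54 ± 0.25 and 4.67 ± 0.25, limma, adjusted p = 6.97e-05 in DDC fed). Cd44, whose splice forms hold HGF near MET, rose by 2.95 in DDC fed and by 5.73 in E18. Gpc3, a fetal liver proteoglycan, was at 568.1 and 365.8 TPM in E18 and at most 1.554 TPM in adults, and Cd82 was higher in E18 by 1.30. The Cd82 call was lost with median-ratio scaling (0.13, limma, adjusted p = 0.693), with the exon-length trend removed (0.40, 0.269) and without either E18 sample (0.0813 and 0.132). Sdc1, the main syndecan of hepatocytes, rose from 154.0 and 102.7 TPM in normal fed to 298.9 and 290.6 TPM in DDC fed, and was at 21.54 and 15.06 TPM in E18 (-2.74, limma, adjusted p = 0.00011). The Sdc1 rise in DDC fed did not pass with median-ratio scaling (0.54, limma, adjusted p = 0.0959). Sdc4 and Plxnb2 fell in E18 by 1.33 and 0.88 on the log2 scale, and turned to 0.43 and 0.84, not past the threshold, when scaled to the hepatocyte markers. Without either DDC fed sample, 3 co-receptors rose in DDC fed, and without E18 sample 1 only 1, Sdc1, fell in E18.

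Of 26 adaptors and kinases downstream of the receptors, 7 rose in DDC fed and 19 in E18, and 0 fell in either. In DDC fed this share was below the 34.2% of all genes that rose, and in E18 it was near the 63.0% of all genes. The medians, 0.5 and 1.36, lay close to those of all genes, 0.45 and 1.06. With median-ratio scaling 3 rose and 1 fell in DDC fed, and 9 rose and 7 fell in E18. With the exon-length trend removed 6 rose and 8 fell in E18, and when scaled to the hepatocyte markers 26 rose. Without normal fed sample 0, 23 rose in DDC fed, and 3 rose without any single DDC fed or E18 sample. Mapk3, which encodes the kinase ERK1, stood at 17.81 and 9.766 TPM in normal fed samples, at 63.06 and 63.31 TPM in DDC fed and 82.46 and 99.18 TPM in E18, a rise of 2.17 and 2.68. Nras, a small GTPase, rose by 1.50 in DDC fed, and Gab2, a docking protein, by 3.35 in E18.

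Of 19 inhibitors of the receptors and of ERK signalling, 11 rose in DDC fed and 16 in E18, and 0 and 1 fell, with medians of 0.84 and 1.65, beside 34.2% and 63.0% of all genes higher. With quantile normalization 4 rose and 2 fell in DDC fed and 5 rose and 4 fell in E18, and with the exon-length trend removed 4 rose and 1 fell, and 8 rose and 3 fell. When scaled to the hepatocyte markers 4 rose in DDC fed and 18 in E18. Without either DDC fed sample, 5 rose in DDC fed. Dusp5, a phosphatase of ERK, was listed at 0.3007 and 0.1302 TPM in normal fed samples, at 5.228 and 13.85 TPM in DDC fed and 23.74 and 23.35 TPM in E18. Spry1 rose by 2.36 in DDC fed, and Cbl, the ubiquitin ligase that sends EGFR to degradation, by 3.97 in E18. The single gene of this list that fell was Errfi1, which encodes MIG6, an inhibitor of EGFR. Errfi1 stood at 919.1 and 469.5 TPM in normal fed samples, at 795.1 and 713.7 TPM in DDC fed and 171.6 and 86.8 TPM in E18 (-2.42 ± 0.43, limma, adjusted p = 0.00193). Normal fed and DDC fed levels of Errfi1 overlapped, and the E18 fall was not past the threshold when scaled to the hepatocyte markers (-0.67, limma, adjusted p = 0.15).

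Of 14 genes that ERK signalling is known to induce, 11 were tested. In DDC fed 8 rose and 0 fell, and in E18 8 rose and 1 fell, with medians of 1.88 and 1.14. Of all genes, 34.2% rose in DDC fed and 63.0% in E18, with medians of 0.45 and 1.06, so in E18 the list lay near all genes. With quantile normalization 5 rose and 1 fell in DDC fed, and 4 rose and 3 fell in E18. Without DDC fed sample 1, 4 rose in DDC fed, and without either E18 sample, 4 rose in E18. The list shares 4 genes with the inhibitors, since feedback inhibitors are also targets. Ier3 was listed at 0.839 and 0.1487 TPM in normal fed samples, at 15.96 and 28.63 TPM in DDC fed and 101.7 and 106.4 TPM in E18, a rise of 3.95 and 6.18. Dusp4 rose by 2.27 in DDC fed (limma, adjusted p = 0.0016). Myc was higher in E18 by 3.46 (limma, adjusted p = 0.00686), with 22.86 and 2.437 TPM in normal fed, and the call was lost without either E18 sample (0.0861 and 0.0962). Epha2 was lower in E18 by 0.65 (difference -0.65, limma, adjusted p = 0.019) and above normal fed when scaled to the hepatocyte markers (0.89, limma, adjusted p = 0.049). Egr1, an early-response gene that the isolation of cells can also induce and that is named here after its values were seen, was at 56.28 and 29.18 TPM in normal fed samples, at 144.9 and 252.9 TPM in DDC fed and 496.5 and 336.7 TPM in E18. Other genes of the list differed from Egr1. Phlda1 and Ccnd1 did not pass in E18, with means of 51.4 and 16.51 TPM there and 144.9 and 25.58 TPM in normal fed. The part of cell isolation in the differences of Hbegf and Areg was not tested. RNA levels do not measure whether any receptor was active.

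**Figure D5:**
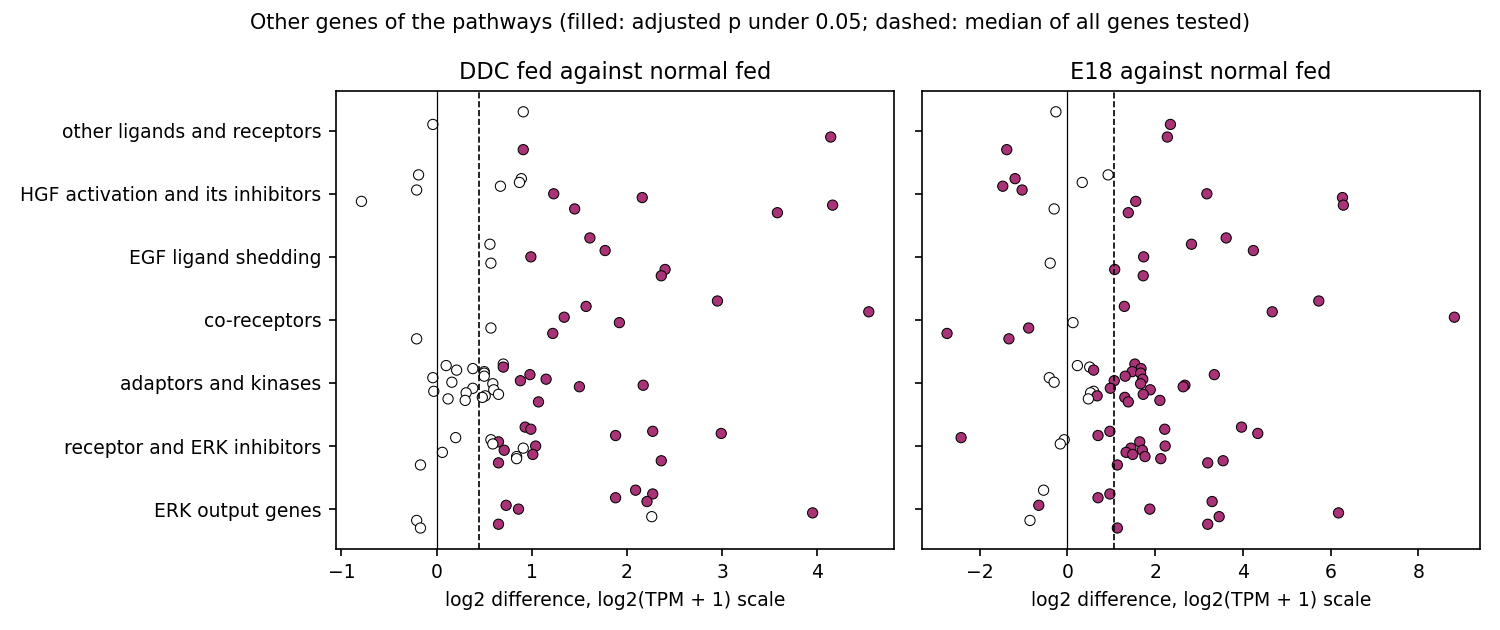
Difference of each tested gene of 7 pathway lists (rows) from normal fed, on the log2(TPM + 1) scale of the horizontal axis, in DDC fed (left) and E18 (right); filled points passed the adjusted threshold of 0.05, the dashed line is the median of all genes tested (0.45 and 1.06), and genes with a compared group listed at 0 are not drawn. The adaptors and kinases gather around the dashed line, and the lowest called point of the receptor and ERK inhibitors in E18 is Errfi1 (-2.42).

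The genes whose levels ran most nearly in parallel with each receptor were taken from 8266 genes with a mean of at least 10 TPM, by Pearson's r of log2 values over the 6 samples. With 3 groups and this many genes, high values of r arise readily, and they are given as a description. For Egfr these included Aox3 (r = 0.987), an aldehyde oxidase, and Shld2 (0.987). Aox3 was listed at 519.9 and 242.3 TPM in normal fed samples, at 119.9 and 97.66 TPM in DDC fed and 56.34 and 38.02 TPM in E18, the same order of samples as Egfr. For Erbb3 they were Tgoln1 (0.986), Abcc2 (0.983), the canalicular organic anion exporter, and Mul1 (0.982). Abcc2 was at 207.2 and 85.89 TPM in normal fed samples, at 275.2 and 188.0 TPM in DDC fed and 71.9 and 38.62 TPM in E18. For Met they were Lpgat1 (0.978), Atp1b1 (0.978) and Hspa9 (0.977), and for Erbb2 Pdcl (0.998), Trp53bp1 (0.997) and Slc15a2 (0.997). In each group, all 4 receptors were listed higher in sample 0 than in sample 1, a difference between samples that such values of r share.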

How the data were processed

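The deposited table gives TPM values per gene for 6 samples, made by the authors, and each column has the same sum. Cuffdiff 2.2.1, STAR 2.4.2a, HTSeq, Picard 1.119 and DESeq2 are among the tools in the submitters' processing notes, with build GRCm38, and which of them made the table is not given in the sources used here. With no counts, no count test was run and the depth of each sample is unknown. Of 48432 gene identifiers, 48053 were matched to GENCODE M21, 40601 of them with the same version.

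Genes that reached 1 TPM in 2 or more samples, 14307 in all, were fitted as log2(TPM + 1), with 1 mean per group over all 6 samples (limma 3.58.1 in R 4.3.3, empirical Bayes with a variance trend, two-sided, Benjamini-Hochberg over all genes tested, threshold 0.05, 3 residual degrees of freedom per gene). The fit was tested on simulated data. Columns are numbered from 0 and titles from 1, so columns were assigned to groups alone. Members and lists were chosen with earlier results of these data known. Named from each list are the 2 strongest rises and the 2 strongest falls past the threshold, without overlap and with no group at 0, or all where 5 or fewer passed, and for each receptor the 3 genes most correlated with it; other genes named serve as background to these, and 2 genes that the rule names are not reported here. Alternatives were pseudocounts of 0.1 and 5, filters, scalings, an exon-length correction, the replicate number as a block, only the compared groups, and each sample left out. Scaling to the hepatocyte markers was added after seeing the data.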

Additional observations from a re-analysis of the deposited data

How the results depend on the processing

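Over the 27 differences of members and the alternatives run, 367 values kept their direction and side of the threshold, 36 newly passed, 17 no longer passed and 30 changed sign. The sign changes fell on differences that had not passed, except for Erbb2 in DDC fed against normal fed and Erbb3 in DDC fed against E18. DDC fed against normal fed, Met became -0.10 with median-ratio scaling, -0.05 with quantile normalization and -0.08 with the exon-length trend removed, which also turned Erbb2 to -0.19. E18 against normal fed, Met became -0.91, -1.02 and -1.12 under the same 3 settings, -0.0 when rescaled without the 50 highest genes, -0.31 without normal fed sample 1 and -0.06 without E18 sample 0 (range -0.31 to 0.74 with each sample left out). Tgfa became -0.68, -1.32 and -0.96 under the 3 settings and -0.17 without normal fed sample 1 (range -0.17 to 0.78). Btc became 0.11 without normal fed sample 0, 0.15 without E18 sample 1 (range -0.21 to 0.15) and 0.53 when scaled to hepatocyte markers, which turned Erbb3 to 0.88. DDC fed against E18, Hbegf became 0.29, 0.71 and 0.41 under the 3 settings, 0.25 without DDC fed sample 0 and 0.07 without E18 sample 0 (range -0.56 to 0.25). Without E18 sample 1, Hgf became -0.09 (range -0.09 to 0.36) and Areg -0.01 (range -0.01 to 0.63). Scaled to hepatocyte markers, DDC fed against E18 gave -1.54 for Hgf, -0.72 for Areg, -0.49 for Egfr, -0.10 for Erbb3 and -1.36 for Met.

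Counts of members called also moved. DDC fed against normal fed, 3 were higher at a mean of at least 5 TPM, where fewer members are tested, and 5 to 7 with a sample left out, and the count lower went from 0 to 1 under that filter, median-ratio scaling, quantile normalization, the rescaling, the exon-length correction and the hepatocyte scaling, and was 0 to 1 with a sample left out. E18 against normal fed, 2 were higher at a mean of at least 5 TPM, 7 when scaled to hepatocyte markers and 4 to 5 with a sample left out; lower were 3 with median-ratio scaling, 5 with quantile normalization or the exon-length correction, 2 when rescaled and 0 to 2 with a sample left out. DDC fed against E18, 7 were higher with quantile normalization, 6 with the exon-length correction, 1 with hepatocyte scaling and 1 to 4 with a sample left out; lower were 0 at a mean of at least 5 TPM and 5 with hepatocyte scaling. The cause of these moves was not tested. A lone sample in a group was taken to have the spread of the other groups.

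Same-numbered samples deviated from their group means with correlations of 0.233, 0.139 and 0.061 between groups. Since not every value is over 0.1 and the labels name no shared animal or batch, they were not treated as pairs. With the replicate block, DDC fed against normal fed gave 7 higher and 1 lower members (Egfr -1.77, limma, adjusted p = 0.00206), E18 against normal fed 4 and 2, and DDC fed against E18 4 and 1.

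With 2 samples a group and depth unknown, levels under 1 TPM have unknown counting error, and an exact 0 can be a failed estimate. Among these levels are Erbb2 in adults, Ereg, Areg in normal fed and in E18 sample 1, and Btc outside DDC fed. Areg in the other samples was under 2 TPM.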
